A study of Mus musculus with 32 samples.

Results

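The 10 genes described here are the chondrocyte SOX factors Sox9, Sox5 and Sox6 and the hypertrophy genes Runx2, Sp7, Col10a1, Ihh, Pth1r, Alpl and Spp1, matched by symbol to 10 of the 41388 Ensembl genes counted in 32 RNA-seq libraries. The libraries came from primary chondrocytes of newborn C57BL/6 mice, used without passage, in 16 groups of 2. Cells of 3 lines with loxP-flanked alleles (LDHA flox, NAMPT flox and NFKBIZ flox) received adenovirus with eGFP (GFP) or with Cre and eGFP (Cre) and were then left without or given IL-1b at 10 ng/mL for 24 h. Wild-type (WT) cells received no virus and were untreated or given IL-1b at 10 ng/mL, the LDHA inhibitor FX11 at 40 uM, or both, for 24 h. Sex was not considered, and no group received Cre virus without a floxed allele, so that the deletion and the Cre virus itself cannot be told apart within a line. The sources used here do not say whether the 2 libraries of a group came from separate cultures or animals, and the p-values measure the spread between these libraries, which may be technical.

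SOX9 is the transcription factor that commits cells to the cartilage lineage, and SOX5 and SOX6, which lack an activation domain of their own, act beside it on the enhancers of cartilage matrix genes. In the growth plate, chondrocytes stop dividing, enlarge and pass through hypertrophy, a step promoted by RUNX2 and held back by the loop between Indian hedgehog (Ihh) and the receptor for parathyroid hormone-related protein (Pth1r). Hypertrophic cells make type X collagen (Col10a1), and late hypertrophic cells and osteoblasts express Sp7 (osterix), the alkaline phosphatase gene Alpl and Spp1 (osteopontin). IL-1b is an inflammatory cytokine used to model cartilage breakdown.

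Total counts ran from 15830658 to 39959888 per library, with a median of 25363482. The style of the titles separated a set 1 of 12 libraries from a set 2 of 20; WT, LDHA flox and NAMPT flox had 1 library of each set in every group, and both libraries of every NFKBIZ flox group were in set 2. The targeted transcript was lower with Cre in each line. Without IL-1b, Cre left 12.8% of Ldha, 11.9% of Nampt and 54.2% of Nfkbiz, and with IL-1b it left 4.97%, 7.61% and 13.3%. Under IL-1b, Nfkbiz was also lower with Cre in the lines not targeted for it. In LDHA flox it went from 177 and 164 CPM (counts scaled to the library total) to 69.7 and 66.9 CPM. In NAMPT flox it went from 202 and 204 CPM to 67.7 and 60.8 CPM. The 8 chondrocyte markers, led by Col2a1, summed to 66100 to 84300 CPM in the GFP libraries without IL-1b. Osteoblast markers, led by Col1a1, were also present, at 1440 to 3620 CPM in LDHA flox and NAMPT flox and 364 to 739 CPM in NFKBIZ flox. In bulk RNA, fewer cells of a type and less RNA per cell cannot be told apart. In WT, 2 set 2 libraries went against their labels: Mmp3, a protease gene induced by IL-1b, was at 0.784 CPM in the library labelled IL-1b and at 2016 CPM in the library labelled FX11.

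Sox5, Sox6, Col10a1 and Spp1, whose levels carry the main results, are shown with the 250 bases before a RefSeq start (GRCm38.p6, 5′ to 3′ on the gene's strand) as examples of the promoter sequence. They were chosen after their values were seen. Capitals mark matches to 5 short motifs, searched on either strand. The RUNX motif was TGTGGT. The SOX motif was ACAAAG or, in its other form, AACAAT. The AP-1 motif was TGANTCA. The TATA motif was TATAAA, and the NF-kB motif is given by name alone. RefSeq listed 1 window for Sox5 and Col10a1, 2 for Spp1 and 6 for Sox6, of which 1 is printed: Sox5 at chr6:143947107-143947356 (- strand), Sox6 at chr7:116038745-116038994 (- strand), Col10a1 at chr10:34389731-34389980 (+ strand) and Spp1 at chr5:104434861-104435110 (+ strand).
Sox5: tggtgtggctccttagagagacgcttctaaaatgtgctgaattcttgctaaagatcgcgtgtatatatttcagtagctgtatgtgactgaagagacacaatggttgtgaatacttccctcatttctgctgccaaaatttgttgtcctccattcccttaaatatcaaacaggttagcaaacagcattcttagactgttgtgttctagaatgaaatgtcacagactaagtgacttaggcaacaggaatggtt
Sox6: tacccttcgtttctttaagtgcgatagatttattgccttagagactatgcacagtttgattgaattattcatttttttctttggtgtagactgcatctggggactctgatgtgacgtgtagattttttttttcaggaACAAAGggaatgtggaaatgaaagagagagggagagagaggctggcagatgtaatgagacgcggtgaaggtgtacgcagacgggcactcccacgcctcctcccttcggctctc
Col10a1: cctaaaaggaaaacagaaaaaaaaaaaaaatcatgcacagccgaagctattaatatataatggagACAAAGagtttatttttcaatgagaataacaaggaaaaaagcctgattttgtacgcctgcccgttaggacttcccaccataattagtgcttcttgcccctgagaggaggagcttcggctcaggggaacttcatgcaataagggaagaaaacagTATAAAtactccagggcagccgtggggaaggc
Spp1: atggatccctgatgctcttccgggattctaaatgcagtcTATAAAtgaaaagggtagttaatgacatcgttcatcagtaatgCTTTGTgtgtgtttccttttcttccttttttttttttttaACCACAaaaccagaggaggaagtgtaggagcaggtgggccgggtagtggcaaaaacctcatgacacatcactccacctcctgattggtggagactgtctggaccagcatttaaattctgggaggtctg
The Sox5 window lies inside the annotated span of the gene, far from its 5′ end at chr6:144781977. It therefore shows an internal start and not the sequence before that end. It held no match. The Sox6 window held a SOX match, the Col10a1 window a SOX match and a TATA match 32 to 27 bases before the start, and the Spp1 window a SOX, a RUNX and a TATA match. Over all 17 windows of the 8 members listed (Sox9 and Sp7 had none), 11 held a SOX match and 4 a RUNX match, and 0 held an AP-1 or NF-kB match. By gene, 5 of the 8 members had a SOX match in at least 1 window and 3 had a RUNX match. Windows of 1 gene are not independent, and Sox6 alone gave 6 of the 17. Of 32851 mouse windows of this length, 24.0% held the SOX, 14.0% the RUNX, 6.7% the AP-1, 7.3% the NF-kB and 12.4% the TATA motif. A match describes the letters of the window and does not show binding.

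Per kilobase of exon, Spp1, Sox9 and Col10a1 were the most abundant members in the 8 libraries of control cells without treatment (6 GFP and 2 WT), with medians of 222, 162 and 157 CPM per kb. Sox6 (22.4) and Pth1r (20.1) followed, then Alpl (6.95), Runx2 (5.95), Sox5 (4.90) and Sp7 (4.71), and Ihh was lowest at 1.97 CPM per kb. Spp1, Sox9 and Col10a1 overlapped in range, as did Sox6 and Pth1r, and each neighbouring pair from Alpl through Runx2, Sox5 and Sp7 to Ihh. Col10a1 had the widest range, from 32.2 to 209 CPM per kb. No member was at 0 in any library, and the lowest count was 18, for Ihh.

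Untreated GFP cells of the 3 lines differed in the level of several hypertrophy genes, not all in the same order. Col10a1 was at 604 and 508 CPM in LDHA flox, 654 and 551 CPM in NAMPT flox and only 101 and 106 CPM in NFKBIZ flox. Alpl was at 35.8 and 31.6, 22.5 and 24.5, and 10.4 and 9.20 CPM in the same order. Sox9 was highest in NFKBIZ flox, at 628 and 605, 594 and 626, and 830 and 964 CPM. Ihh was highest there too, at 3.67 and 5.53, 2.05 and 2.00, and 6.54 and 7.72 CPM (adjusted p = 0.0005). The level without IL-1b differed between the lines for 9 of 10 members, against 27.2% of all genes tested, with Col10a1 (adjusted p = 4.94e-12) and Alpl (adjusted p = 3.27e-09) lowest in p and Pth1r not passing (adjusted p = 0.0795). This comparison was added after the data were seen. The summed osteoblast markers were also lowest in NFKBIZ flox GFP, at 536 to 722 CPM. They were at 3490 to 3620 CPM in LDHA flox GFP and 2760 to 2980 CPM in NAMPT flox GFP. The perichondrial or fibroblast markers share the leading gene Col1a1 with them. These summed to 6190 to 6310 CPM in LDHA flox, 5350 to 5500 in NAMPT flox and 1390 to 1570 in NFKBIZ flox. The part of either list in the difference was not tested. Line and library set were also partly joined, since NFKBIZ flox had no set 1 library.

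**Figure D1:**
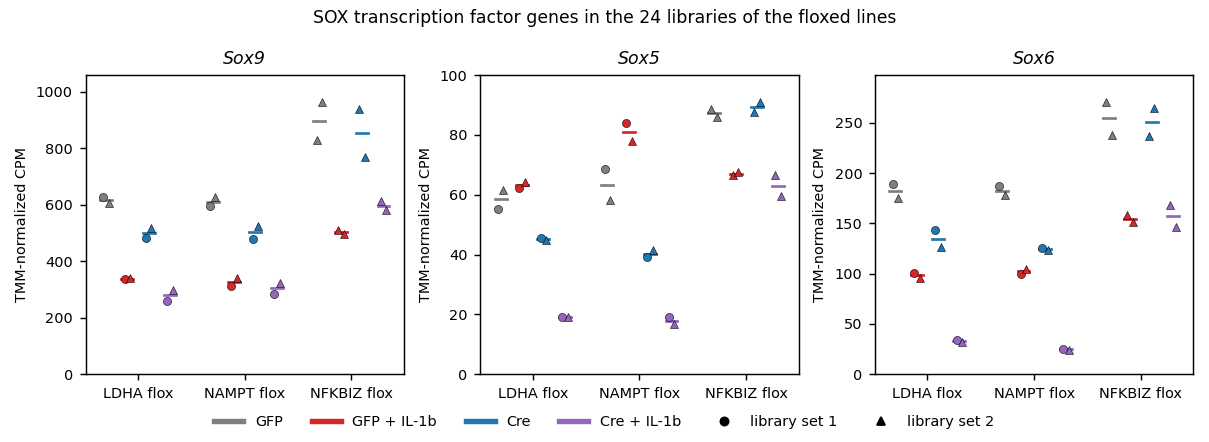
TMM-normalized CPM (y axis, from 0) of Sox9, Sox5 and Sox6 in the 24 libraries of the floxed lines; each point is 1 library, short lines are group means, colours give virus and IL-1b, and circles and triangles give library set. Sox5 and Sox6 were lowest with Cre and IL-1b in LDHA flox and NAMPT flox, at 16.9 to 19.2 and 24.4 to 34.2 CPM. In NFKBIZ flox they were at 59.5 to 66.7 and 146 to 168 CPM with Cre and IL-1b and overlapped GFP with IL-1b.

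The first question was what IL-1b did to these genes in GFP cells. Averaged over the 3 lines, 8 of 10 members were lower with IL-1b and 1, Spp1, was higher, against 49.5% of all 16727 genes tested, 23.6% lower and 25.9% higher. Their median log2 fold change was -0.81, beside 0.02 for all genes. Sox9, Sox6 and 6 of the 7 hypertrophy genes fell, and Sox5 did not pass the test.

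Sox9 (chr11:112782224-112787760, + strand) ranged from 594 to 964 CPM, median 627, in the 6 GFP libraries without IL-1b and from 311 to 510 CPM, median 340, in the 6 with it. The ranges did not overlap, and the log2 fold change was -0.85 ± 0.06 (SE; adjusted p = 1.42e-10). Sox6 (chr7:115471344-116038744, - strand) fell from 175 to 271 CPM, median 188, to 95.6 to 158 CPM, median 103, again without overlap (-0.80 ± 0.05, adjusted p = 2.44e-11); in set 2 alone, with 1 library per group in LDHA flox and NAMPT flox, it was -0.76 (adjusted p = 0.0636). Sox5 (chr6:143828425-144781977, - strand), the partner of SOX6, behaved differently by line. In NAMPT flox it went from 68.5 and 58.1 CPM to 84.1 and 78.1 CPM with IL-1b, and within that line it rose (log2 0.38 ± 0.09, adjusted p = 0.00981). In NFKBIZ flox it went from 88.8 and 85.9 CPM to 66.6 and 67.6 CPM and fell (-0.36 ± 0.09, adjusted p = 0.0116). In LDHA flox the levels were 55.4 and 61.6 CPM without and 62.4 and 64.4 CPM with IL-1b (adjusted p = 0.342). The test of the difference between lines passed for Sox5 (adjusted p = 0.00349), and the mean over lines was 0.05 ± 0.05 (adjusted p = 0.456). Sox5os1, an antisense gene that shares exon sequence with Sox5, stayed at or under 0.522 CPM in all 32 libraries.

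Runx2 (chr17:44495987-44814797, - strand), the regulator that drives hypertrophy, moved least among the called genes. It ranged from 42.5 to 55.8 CPM, median 48.3, without IL-1b and from 41.6 to 46.5 CPM, median 44.2, with it (log2 -0.14 ± 0.05, adjusted p = 0.0199), and the ranges overlapped. This call was lost in each library set alone (adjusted p = 0.109 in set 1 and 0.441 in set 2). Its antisense neighbour Runx2os1 was at 0.188 to 1.29 CPM.

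Col10a1 (chr10:34389981-34397085, + strand), the marker of hypertrophic cells, fell the most. In LDHA flox it went from 604 and 508 CPM to 131 and 121 CPM, in NAMPT flox from 654 and 551 to 143 and 134, and in NFKBIZ flox from 101 and 106 to 29.6 and 28.7. Libraries with IL-1b were lower in every line, although the NFKBIZ flox cells without IL-1b lay below the other lines with it. The mean log2 fold change was -2.01 ± 0.07 (adjusted p = 8.74e-16). Col10a1 lies within Nt5dc1 on the other strand and shares exon sequence with it, and Nt5dc1 was at 4.88 to 11.8 CPM, so that reads of the pair could not be told apart if strand was not used.

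The Ihh and PTHrP arm moved down as well. Pth1r (chr9:110722088-110743686, - strand) ranged from 37.6 to 56.2 CPM, median 45.3, without IL-1b and from 12.5 to 22.2 CPM, median 18.9, with it (log2 -1.32 ± 0.09, adjusted p = 4.3e-11), with no overlap. Ihh (chr1:74945315-74951672, - strand) was low throughout, at 2.00 to 7.72 CPM, median 4.60, without and 1.11 to 5.86 CPM, median 2.77, with IL-1b (-0.56 ± 0.18, adjusted p = 0.0149). The call was lost in set 1 alone (-0.47, adjusted p = 0.234), and it was also lost without LDHA flox GFP + IL-1b replicate 1, LDHA flox GFP replicate 2 or NAMPT flox GFP + IL-1b replicate 2 (-0.48 to -0.45). In the 3 lines taken alone Ihh had adjusted p between 0.0684 and 0.316, and in LDHA flox it passed with the replicate number as a block (-0.73, adjusted p = 0.0144) and with no filter on low counts (-0.74, adjusted p = 0.0374).

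Of the genes shared with osteoblasts, Alpl (chr4:137741733-137796384, - strand) fell from a median of 23.5 CPM (9.20 to 35.8) to 13.2 CPM (4.74 to 21.4), with log2 -0.81 ± 0.07 (adjusted p = 8.48e-09). Sp7 (chr15:102356609-102366325, - strand), which acts after RUNX2 in bone formation, fell by a mean of 0.88 ± 0.12 on the log2 scale (adjusted p = 2.24e-06), and its response differed between the lines (adjusted p = 0.0202). In NFKBIZ flox Sp7 went from 4.85 and 7.59 CPM to 1.85 and 1.83 CPM (-1.74 ± 0.28), while in LDHA flox it went from 18.3 and 13.7 to 13.4 and 12.7 CPM (-0.30 ± 0.16, adjusted p = 0.197). Osteoblast markers as a list moved the same way, with 5 of 6 tested lower and 0 higher, against 23.6% and 25.9% of all genes.

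Spp1 (chr5:104435118-104441050, + strand), a secreted phosphoprotein of mineralized matrix that macrophages also make, was the single member that rose in the mean over lines. It ranged from 340 to 441 CPM, median 400, without IL-1b and from 1124 to 1843 CPM, median 1244, with it (log2 1.82 ± 0.04, adjusted p = 3.33e-18). The rise differed between the lines (adjusted p = 7.37e-05), at 1.5 ± 0.07 in LDHA flox, 1.56 ± 0.06 in NAMPT flox and 2.37 ± 0.11 in NFKBIZ flox. The 10 macrophage markers, led by Cd68, summed to 16.0 to 27.3 CPM without and 36.0 to 68.6 CPM with IL-1b. Of these, 4 of 8 tested rose and 0 fell, against 25.9% and 23.6% of all genes. The part of these markers in the Spp1 result was not tested. In all, the IL-1b response differed between lines for 3 members, against 2.01% of all genes.

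**Figure D2:**
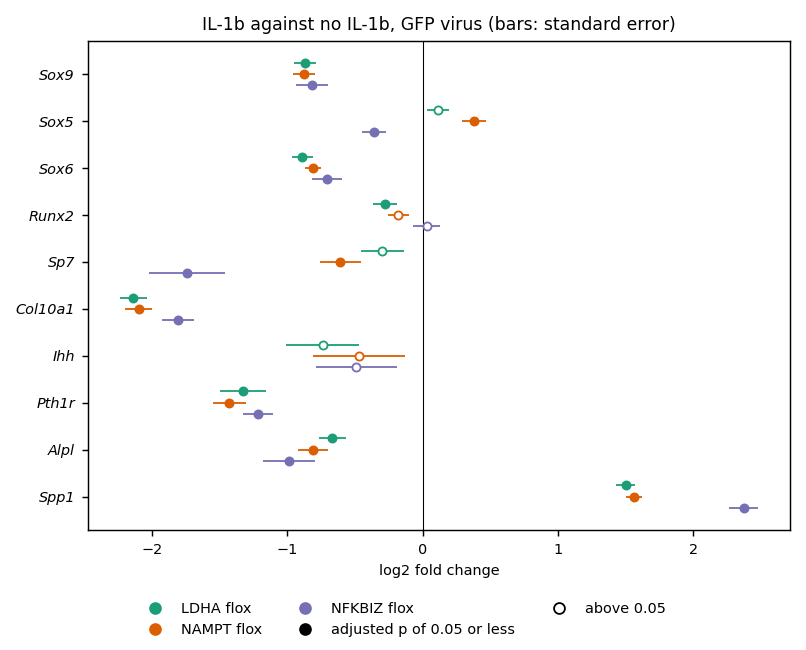
Log2 fold change (x axis) of IL-1b against no IL-1b in GFP cells for each of the 10 genes (y axis), by line, with the standard error as bars; filled points passed an adjusted p of 0.05. Spp1 lies far to the right in all 3 lines, Col10a1 farthest to the left in LDHA flox (-2.14) and NAMPT flox (-2.10), and Sox5 on both sides of 0.

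Within the lines, 7 members were called in LDHA flox, 8 in NAMPT flox and 8 in NFKBIZ flox, against 27.9%, 35.0% and 26.8% of all genes tested in each. Runx2 in NAMPT flox passed only with the replicate block (-0.18, adjusted p = 0.0422).

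The genes these factors act on were described from lists. Of all genes tested, 25.9% rose and 23.6% fell with IL-1b. All 18 tested genes of a list of SOX9 targets in cartilage, most of them matrix genes, fell with IL-1b. Their median log2 fold change was -1.40 beside 0.02 for all genes. Among them were the matrilins Matn3 (-2.65) and Matn1 (-2.31) and chondromodulin (Cnmd, -2.12). The list was written by hand, and SOX binding was not tested. Of 12 other SOX genes tested, 3 rose and 4 fell, with Sox8, a close relative of Sox9, at -1.81. Among 26 regulators of hypertrophy, 6 rose and 12 fell: Hdac4, a repressor of RUNX2 activity, rose (1.49), as did Runx1 (1.32), and the FGF receptor Fgfr3 fell (-2.01). In the hedgehog and PTHrP pathway, 5 of 19 rose and 10 fell; the hedgehog target Gli1 fell (-2.54), and the receptor and target Ptch1 rose (0.55). Of 17 mineralization genes, 6 rose and 7 fell, led by the collagenase Mmp13 (2.67) upward and the sphingomyelinase Smpd3 (-3.71) downward.

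The next comparison asked what Cre did in cells without IL-1b. Averaged over the lines, 7 of 10 members were lower and 0 higher, against 15.9% of all genes, 6.42% lower and 9.49% higher, but the lines were unlike each other. In LDHA flox 4 members were called (Sox5, Sox6, Col10a1 and Spp1; 5.52% of all genes), in NAMPT flox 7 (14.4% of all genes) and in NFKBIZ flox 0 by edgeR, DESeq2 and limma voom (0.260% of all genes by edgeR), where 1 member and 910 genes had an unadjusted p under 0.05. In LDHA flox Sox9 passed with DESeq2 (adjusted p = 0.0044), limma voom (0.0446) and no filter on low counts (0.0123). Pth1r passed there with no filter (adjusted p = 0.00295). The replicate block gained Sox9 (-0.32, adjusted p = 0.00149), Runx2 (-0.29, adjusted p = 0.0143) and Pth1r (-0.44, adjusted p = 0.00696). With it the LDHA flox count was 7. It was 2 without LDHA flox GFP replicate 1 or without LDHA flox Cre replicate 1, and 1 without LDHA flox Cre replicate 2. In NAMPT flox it was 4 without NAMPT flox Cre replicate 1 or without NAMPT flox GFP replicate 2.

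Col10a1 went from 604 and 508 CPM to 349 and 316 CPM with Cre in LDHA flox and from 654 and 551 to 369 and 318 in NAMPT flox, and the groups did not overlap in either line. The log2 fold changes were -0.76 ± 0.10 (adjusted p = 0.0025) and -0.82 ± 0.09 (adjusted p = 0.000216). In NFKBIZ flox Col10a1 was at 101 and 106 CPM with GFP and 119 and 105 CPM with Cre. Sox5 went from 55.4 and 61.6 to 45.4 and 44.8 CPM in LDHA flox (-0.39 ± 0.08, adjusted p = 0.0219). In NAMPT flox it went from 68.5 and 58.1 to 39.1 and 41.5 CPM (-0.66 ± 0.09, adjusted p = 0.000886). Sox6 fell by 0.45 ± 0.08 in LDHA flox and by 0.56 ± 0.06 in NAMPT flox on the log2 scale. The SOX genes of NFKBIZ flox had log2 fold changes from -0.08 to 0.02. Sp7, Ihh and Alpl passed in no line. In the mean over lines, 0 of the 7 calls held in set 2 alone (51 genes called in all) and 2 in an additive fit with line and set. Unlike the main fit, both of these gave the lines a common Cre effect, so that differences between lines counted as spread. The log2 fold changes in set 2 alone were -0.23 for Sox5, -0.29 for Sox6 and -0.34 for Col10a1. In the main fit they were -0.33, -0.33 and -0.48. The part of the library set in the lost calls was not tested apart from this. The 18 listed SOX9 target genes all fell in the mean over lines, by a median of -0.40.

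With IL-1b present, Sox5 and Sox6 were far lower with Cre than with GFP in LDHA flox and NAMPT flox, and not in NFKBIZ flox. Averaged over the lines, 4 of 10 members were lower (Sox5, Sox6, Runx2 and Spp1) and 0 higher, against 50.5% of all genes, 27.0% lower and 23.5% higher. The median over the 10 genes was -0.12, beside -0.04 for all genes. In set 2 alone, where NFKBIZ flox has 2 libraries per group and the other lines 1, Sox6 did not pass (-0.76, adjusted p = 0.0816), and in set 1 alone, without NFKBIZ flox, 7 members passed. The mean over lines joined lines that differed in the Cre effect. In a test over both treatments it differed for 6 members (Sox5, Sox6, Runx2, Sp7, Col10a1 and Spp1), against 22.9% of all genes. Sp7 did not pass this test with limma voom (adjusted p = 0.0768).

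Sox5 fell from 62.4 and 64.4 CPM with GFP to 19.2 and 19.1 CPM with Cre in LDHA flox (log2 -1.70 ± 0.09, adjusted p = 5.51e-07). In NAMPT flox it fell from 84.1 and 78.1 to 19.0 and 16.9 CPM (-2.15 ± 0.10, adjusted p = 4.01e-08). In NFKBIZ flox the levels were 66.6 and 67.6 with GFP and 66.7 and 59.5 CPM with Cre, which overlapped (-0.11 ± 0.09, adjusted p = 0.489). Sox6 followed the same order. It fell from 101 and 95.6 to 34.2 and 31.7 CPM in LDHA flox (-1.55 ± 0.08, adjusted p = 1.01e-06) and from 100 and 105 to 25.4 and 24.4 CPM in NAMPT flox (-2.02 ± 0.07, adjusted p = 4.64e-09). In NFKBIZ flox Sox6 was at 158 and 151 CPM with GFP and 168 and 146 CPM with Cre (0.01 ± 0.11, adjusted p = 0.957).

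Markers of chondrocytes and of other cell types moved in the same lines. Of all genes, 27.0% were lower and 23.5% higher with Cre under IL-1b in the mean over lines. Of 8 chondrocyte markers, 7 were lower with Cre under IL-1b in the mean over lines and 0 higher. Their sum was 25000 to 25500 CPM with GFP and 13600 to 14600 CPM with Cre in LDHA flox. It was 24700 to 25400 and 14700 to 15100 CPM in NAMPT flox, and 27200 to 29500 and 32700 to 35500 CPM in NFKBIZ flox. In the mean over lines, 8 of 10 perichondrial or fibroblast markers were lower with Cre under IL-1b and 1 was higher. In LDHA flox their sum was 4890 to 5020 CPM with GFP and 2980 to 3020 CPM with Cre, in NAMPT flox 4370 to 4400 and 2550 to 2580 CPM, and in NFKBIZ flox 1250 to 1280 and 1190 to 1240 CPM. The osteoblast markers, which share the leading gene Col1a1, summed to 2490 to 2620 CPM with GFP and 1690 to 1740 CPM with Cre in LDHA flox, 2050 to 2140 and 1440 to 1490 CPM in NAMPT flox, and 364 to 382 and 407 to 460 CPM in NFKBIZ flox. Of 5 endothelial markers tested, 2 were higher and 1 lower with Cre. The sum over all 6 was 8.75 to 8.84 CPM with GFP and 21.9 to 26.4 CPM with Cre in LDHA flox, 9.14 to 10.9 and 25.7 to 29.5 CPM in NAMPT flox, and 6.56 to 7.27 and 9.80 to 10.6 CPM in NFKBIZ flox. Their part in the Sox5 and Sox6 results was not tested.

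Sox9, the factor that SOX5 and SOX6 assist, was called lower in LDHA flox alone. It was at 336 and 339 CPM with GFP and 260 and 299 CPM with Cre in LDHA flox (-0.25 ± 0.08, adjusted p = 0.0445). In NAMPT flox it was at 311 and 342 against 285 and 324 CPM (adjusted p = 0.422), and in NFKBIZ flox at 510 and 497 against 613 and 581 CPM (adjusted p = 0.232). The mean over lines was -0.05 ± 0.06 (adjusted p = 0.543). The LDHA flox call of Sox9 was lost in 5 of the 8 fits that left out 1 library.

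Pairs of lines were compared after the data were seen. NAMPT flox and LDHA flox differed in the Cre effect under IL-1b for 0 members by edgeR (0.138% of all genes; 2 members and 1695 genes at an unadjusted p under 0.05), with Sox5 at -0.46 ± 0.13 (adjusted p = 0.179) and Sox6 at -0.48 ± 0.13 (adjusted p = 0.155). NFKBIZ flox differed from LDHA flox for 7 members (22.5% of all genes) and from NAMPT flox for 6 (32.2% of all genes). For Sox5 the differences were 1.63 ± 0.13 and 2.10 ± 0.13, and for Sox6 they were 1.60 ± 0.12 and 2.08 ± 0.13. With the replicate block, Sox9 also differed between NFKBIZ flox and NAMPT flox (0.36, adjusted p = 0.032).

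Runx2 fell from 46.5 and 45.4 to 27.6 and 30.8 CPM in LDHA flox (-0.64 ± 0.09, adjusted p = 0.000432) and from 42.4 and 41.6 to 24.5 and 26.5 CPM in NAMPT flox (-0.71 ± 0.08, adjusted p = 2.48e-05). In NFKBIZ flox it was at 43.0 and 45.8 against 38.8 and 39.9 CPM, which did not overlap but did not pass (-0.19 ± 0.10, adjusted p = 0.206). Col10a1, in contrast, fell in LDHA flox (131 and 121 against 96.2 and 86.4 CPM, -0.44 ± 0.10, adjusted p = 0.00773) and rose in NFKBIZ flox (29.6 and 28.7 against 34.7 and 42.9 CPM, 0.39 ± 0.12, adjusted p = 0.0377). The NFKBIZ flox call of Col10a1 did not pass with limma voom (adjusted p = 0.0572). In NAMPT flox Col10a1 was at 143 and 134 against 130 and 118 CPM (-0.14 ± 0.10, adjusted p = 0.243), and passed with the replicate block (adjusted p = 0.00592).

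Spp1 was the single member called with Cre under IL-1b in every line. With Cre and IL-1b it was at 534 and 532 CPM in LDHA flox, 606 and 576 CPM in NAMPT flox and 494 and 450 CPM in NFKBIZ flox, below all 6 GFP libraries with IL-1b. The log2 fold changes against GFP were -1.07 ± 0.07 (adjusted p = 2.74e-06), -1.06 ± 0.06 (adjusted p = 1.85e-07) and -1.90 ± 0.11 (adjusted p = 1.28e-07). The summed macrophage markers in these libraries were 30.5 to 32.7, 23.9 to 23.9 and 59.8 to 61.1 CPM, against 44.6 to 47.2, 36.0 to 39.6 and 67.6 to 68.6 CPM with GFP, and their part was not tested.

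Sp7 fell in LDHA flox (13.4 and 12.7 against 7.21 and 8.79 CPM, -0.70 ± 0.16, adjusted p = 0.00876). In NFKBIZ flox it was at 1.85 and 1.83 against 2.96 and 3.83 CPM (0.86 ± 0.29, adjusted p = 0.0632). There it passed with no filter on low counts (0.87, adjusted p = 0.0205). In NAMPT flox Sp7 was at 8.01 and 8.40 against 5.70 and 6.80 CPM (-0.38 ± 0.15, adjusted p = 0.0624), and passed with the replicate block (adjusted p = 0.0332). Pth1r and Alpl passed in no line. Ihh, at 2.30 and 3.25 CPM with GFP and 3.70 and 4.27 CPM with Cre in LDHA flox (0.56 ± 0.27, adjusted p = 0.147), passed there only with the replicate block (0.57, adjusted p = 0.0493).

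**Figure D3:**
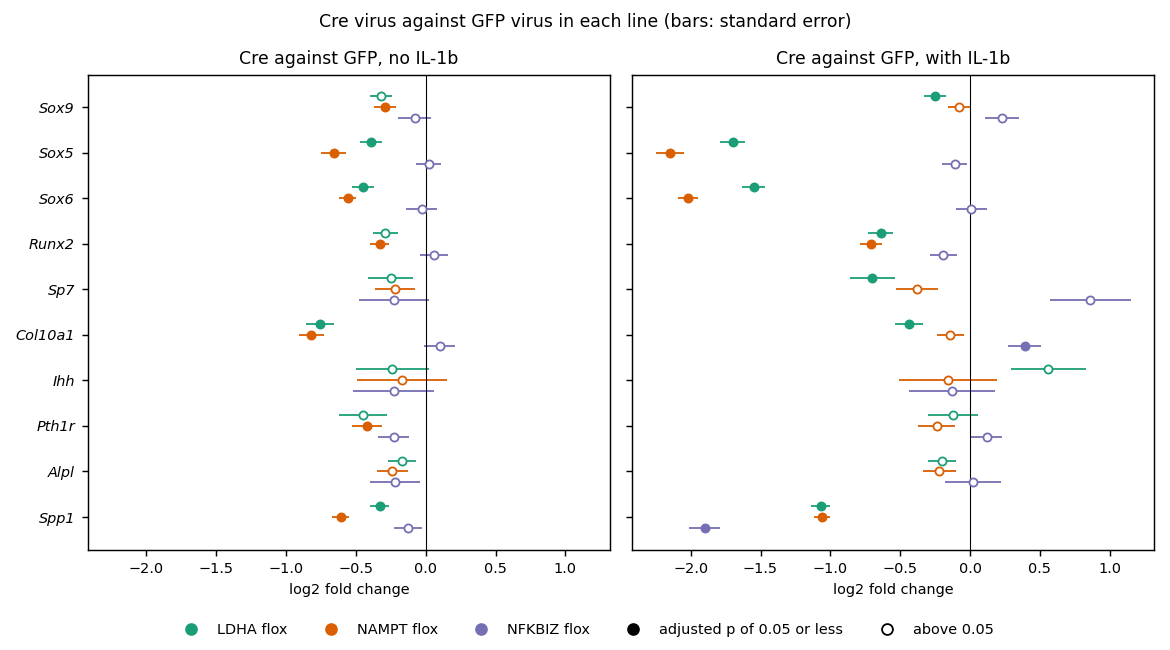
Log2 fold change (x axis) of Cre against GFP for each of the 10 genes (y axis), by line, without IL-1b (left) and with it (right), with the standard error as bars; filled points passed an adjusted p of 0.05. Sox5 and Sox6 lie beyond -1.5 in LDHA flox and NAMPT flox on the right and near 0 in NFKBIZ flox, while Spp1 is lower in all 3 lines.

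In all, 7 members were called in LDHA flox (34.0% of all genes), 4 in NAMPT flox (48.4%) and 2 in NFKBIZ flox (17.4%). The NAMPT flox count was 6 with the replicate block. The NFKBIZ flox count was 1 without GFP + IL-1b replicate 1, GFP replicate 2, GFP + IL-1b replicate 2 or Cre + IL-1b replicate 2 of that line.

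The IL-1b response itself differed between Cre and GFP for 5 members, against 26.5% of all genes, with 4 differences below 0 (14.7% of all genes) and 1 above (11.8%). The difference on the log2 scale was -1.0 ± 0.07 for Sox5, -0.87 ± 0.07 for Sox6, -1.01 ± 0.06 for Spp1 and -0.35 ± 0.07 for Runx2, and 0.40 ± 0.09 for Col10a1, whose fall with IL-1b was smaller with Cre. In set 2 alone 1 of these 5 passed, Spp1, and in the additive fit 2, Sox5 and Spp1. The set 2 and additive fits gave the lines a common effect, so that differences between lines counted as spread. Pth1r passed only with the replicate block (0.26, adjusted p = 0.0494).

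**Figure D4:**
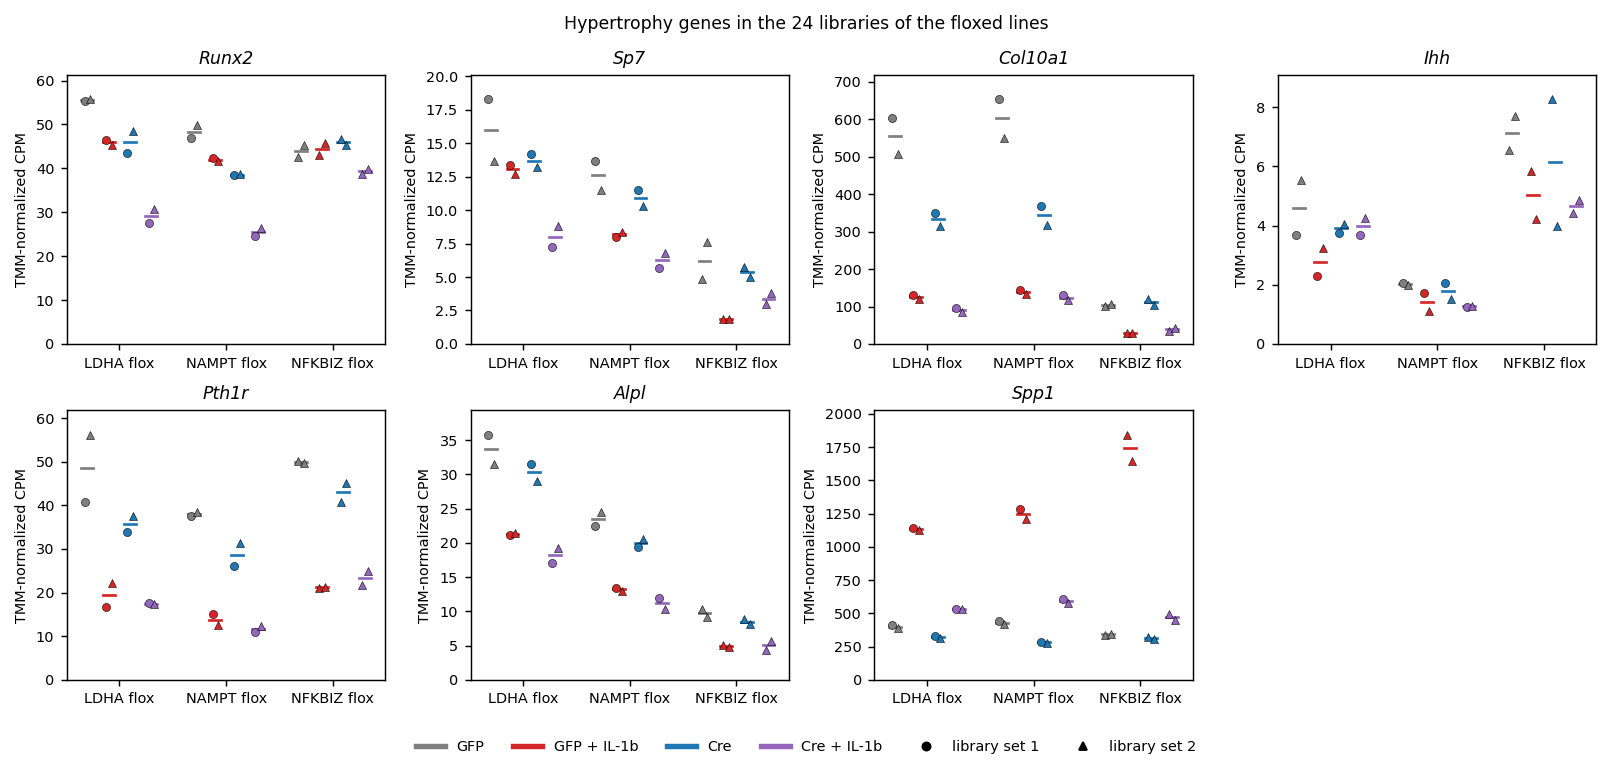
TMM-normalized CPM (y axis, from 0) of the 7 hypertrophy genes in the 24 libraries of the floxed lines; each point is 1 library, short lines are group means, colours give virus and IL-1b, and circles and triangles give library set. Col10a1 without IL-1b is highest in LDHA flox and NAMPT flox, and Spp1 with IL-1b is lower with Cre in every line.

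The listed genes under IL-1b are given in the mean over lines, where 27.0% of all genes were lower with Cre and 23.5% higher. Of the 18 SOX9 target genes, 15 were lower with Cre and 0 higher. Their median was -0.69 beside -0.04 for all genes, and the link protein gene Hapln1 (-2.23), Epyc (-1.85) and Col11a1 (-1.03) led. The lines differed, in comparisons added after the data were seen. The Cre effect was higher in NFKBIZ flox than in LDHA flox for 14 of the 18, with a median difference of 1.18. Against NAMPT flox it was higher for 15, with a median of 1.09. Over all genes 22.5% and 32.2% were called, with medians of 0.02 and 0.03. Of 17 mineralization genes, 11 fell and 1 rose, with Mmp13 at -2.07 and the channel gene Panx3 at -1.86. The hypertrophy regulators split into 8 higher and 12 lower of 26, with Dlx3 at 1.94 and Trps1 at -1.36. In the hedgehog and PTHrP pathway 6 of 19 rose and 7 fell, with the ligand gene Dhh at 2.43 and the coreceptor gene Gas1 at -1.65. Of 12 other SOX genes, 6 were called, near the 50.5% of all genes. Among these 6, 3 rose, with Sox7 at 1.51 and Sox13 at 0.94, and 3 fell.

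In WT cells without virus, 0 genes were called by edgeR in any of the 4 comparisons (0.00% of 15461 tested), so that no member passed. At an unadjusted p under 0.05 there were 153 genes and 1 member for IL-1b, 68 and 2 for FX11, 102 and 0 for IL-1b + FX11 against IL-1b, and 860 and 4 for IL-1b + FX11 against untreated. DESeq2 called 6, 2, 1 and 153 genes and 1 member, Alpl, in the last (-1.89, adjusted p = 0.016), and limma voom called 0 genes in each.

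In set 2, Col10a1, Spp1 and Pth1r followed Mmp3 rather than the labels. Col10a1 was at 474 CPM in the untreated, 437 in the FX11, 40.1 in the IL-1b and 35.7 in the IL-1b + FX11 library of set 1. In set 2 the libraries with these labels were at 156, 23.4, 118 and 23.0 CPM. Spp1 was at 184, 287, 1561 and 1076 CPM in set 1 and at 279, 3171, 395 and 1296 CPM in set 2. Thus the set 2 library labelled FX11 had low Col10a1 and high Spp1, and the one labelled IL-1b had neither. Pth1r showed the same arrangement, at 89.3, 69.1, 20.9 and 21.1 CPM in set 1 and 111, 43.9, 110 and 46.3 CPM in set 2. Sox9 was at 713, 704, 485 and 503 CPM in set 1 and 959, 782, 780 and 484 CPM in set 2, where the libraries labelled FX11 and IL-1b had like levels. Runx2 (63.5 and 61.0 CPM) and Sox5 (70.5 and 61.2 CPM) were likewise not lower in the set 2 library labelled FX11 than in the one labelled IL-1b. In GFP cells IL-1b moved these genes little, by -0.14 and 0.05 on the log2 scale over the lines. Sox6 (169 and 209 CPM), Alpl (13.3 and 22.2), Sp7 (6.70 and 14.8) and Ihh (2.66 and 4.67) were lower in the set 2 library labelled FX11.

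Without the 2 libraries that went against their labels, a step added after the data were seen, the IL-1b and FX11 arms held 1 library each, assumed to vary like the other groups. The 0 members then called by edgeR say nothing about the members, and the values are given as a description. The log2 fold change for IL-1b was then -2.97 for Col10a1 (-2.0 with all 8 libraries), -2.26 for Pth1r (-0.62), 2.76 for Spp1 (2.09) and -0.78 for Sox9 (-0.40). For FX11 it was 0.30 for Spp1 (2.93 with all 8) and 0.46 for Col10a1 (-0.46 with all 8). The macrophage markers summed to 95.1 to 349 CPM in WT, above every library of the floxed lines, and their part in the WT levels of Spp1 was not tested.

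**Figure D5:**
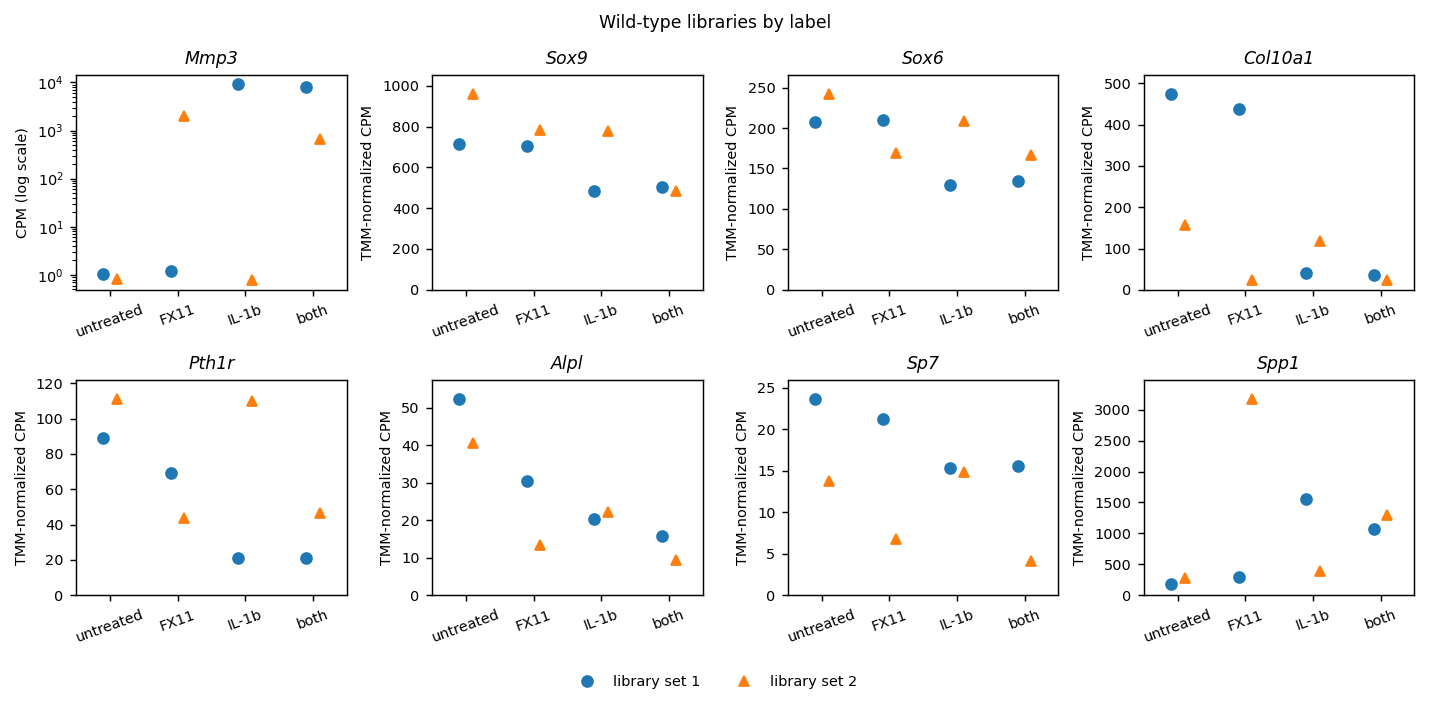
CPM (y axis, log scale for Mmp3 and linear from 0 for the rest) of Mmp3 and 7 of the 10 genes in the 8 WT libraries by label (x axis; both, IL-1b + FX11), circles for set 1 and triangles for set 2. In set 2, the library labelled FX11 has high Mmp3 (2016 CPM) and Spp1 (3171 CPM), and the library labelled IL-1b has Mmp3 at 0.784 CPM.

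Genes with the most similar pattern over the 24 libraries of the floxed lines, by Pearson correlation of log2(CPM + 1) among 10796 genes, were Plxnb1 (0.987), Adcy9 (0.980) and Mcrip1 (0.979) for Sox9. They were Mest (0.953), Rtl3 (0.944) and Mef2c (0.943) for Runx2, and Bgn (0.976), Col6a3 (0.963) and Gli2 (0.959) for Col10a1. These libraries share lines, treatments and sets, and the correlations are descriptions.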

How the data were processed

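Total RNA was depleted of ribosomal RNA and sequenced. Per the study's methods, the authors aligned reads with STAR to the Ensembl 76 GRCm38 assembly and counted uniquely aligned, unambiguous reads per gene with featureCounts; the submitters' processing notes give STAR 2.0.4b and featureCounts 1.45, the study's methods name other versions of both tools, and strand use is not given in the sources used here. The authors deposited raw counts beside CPM and RPKM; the deposited CPM and RPKM values were checked but used in no test. Gene names and coordinates came from GENCODE M21 (GRCm38; 40340 of 41388 IDs matched) and promoter windows from RefSeq.

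Counts were tested with edgeR 4.0.16 (quasi-likelihood, TMM; genes over 1 CPM in at least 1 library; 355 rRNA genes left out), with Benjamini-Hochberg adjustment over all genes tested and calls at an adjusted p of 0.05. The 24 libraries of the floxed lines were fitted together with group means, and contrasts were averaged over lines; each line and WT were also fitted alone. CPM values in the text are TMM-normalized. Tested on simulated data with 200 genes changed 1 unit on the log2 scale, 196 were recovered with 8 false calls for IL-1b over the 3 lines. In LDHA flox 155 were recovered with 16 false calls, and in WT 0 with 0 false calls. The WT spread came from its libraries as labelled, including those that went against their labels.

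Replicate numbers followed the library sets in LDHA flox and NAMPT flox, and deviations of same-numbered libraries correlated there (0.42 to 0.67 and 0.45 to 0.61 over 10874 genes), so that fits with the number as a block are given where they change a call. Alternatives were DESeq2 1.42.0, limma 3.58.1 (voom with quality weights), other size factors and filters, each set alone and each library left out. The fits of each set alone, and an additive fit with line and set, did not use group means. They gave all lines a common effect of Cre, of IL-1b and of their interaction. The named genes were all members and, per list and comparison, called genes among the 3 higher and 3 lower with the smallest adjusted p. The members and lists were chosen with earlier results of these data known. The promoter windows printed were chosen after their values were seen.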

Additional observations from a re-analysis of the deposited data

Results flagged for a closer look

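Differences between groups under the same contrast were tested for every member, by the quasi-likelihood test of edgeR. The IL-1b response in GFP cells differed between the 3 lines for Sox5 (adjusted p = 0.00349), Sp7 (adjusted p = 0.0202) and Spp1 (adjusted p = 7.37e-05). The Cre effect, over both treatments, differed between the lines for Sox5 (adjusted p = 7.52e-10), Sox6 (1.07e-09), Spp1 (5.85e-06), Col10a1 (6.19e-05), Runx2 (0.00117) and Sp7 (0.00735). Sox9 differed as well with the replicate block (adjusted p = 0.0198), with DESeq2 (0.0171) and with no filter on low counts (0.012). Sp7 did not pass with limma voom (adjusted p = 0.0768). The IL-1b response differed between Cre and GFP, in the mean over lines, by -1.0 on the log2 scale for Sox5, -0.87 for Sox6, -1.01 for Spp1, -0.35 for Runx2 and 0.40 for Col10a1. Groups of 2 libraries are too small for a check of single libraries that stand apart.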

How the results depend on the processing

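No result changed direction past a threshold under any alternative run. Of the tests of single members, not counting fits that left out 1 library, 1456 kept their side of the threshold, 24 gained it and 30 lost it. The count of members called moved by over 1.5 times in 8 cases. It was 7 for Cre without IL-1b in LDHA flox with the replicate block, 1 for Cre under IL-1b in NFKBIZ flox with limma voom, and 1 for IL-1b + FX11 against untreated in WT with DESeq2. An additive fit with line and set gave 2 for Cre without IL-1b and 2 for the Cre by IL-1b interaction. Set 2 alone gave 0 and 1 for these (51 and 490 genes called in all), and set 1 alone, which holds no NFKBIZ flox library, gave 7 for Cre under IL-1b. The additive fit and the fits of a single set gave the lines common effects, so that differences between lines counted as spread. The cause was not tested for the others. The fit without a filter on low counts took the Runx2 call for Cre without IL-1b over the lines (adjusted p = 0.081). Calls that the replicate block gained are given beside their results, and it took away none. NFKBIZ flox numbers, given in accession order, pair nothing. WT numbers follow the library sets, but their correlations ran from -0.25 to 0.73 (median 0.53) and not every pair correlated; with the replicate block 0 genes were called in each WT comparison, as without it.

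With each library left out in turn, the members called over the 3 lines ranged from 8 to 9 for IL-1b, 5 to 8 for Cre without IL-1b, 4 to 5 for Cre under IL-1b, 5 to 6 for the interaction, 2 to 3 for the IL-1b response between lines and 5 to 7 for the Cre effect between lines. In LDHA flox the ranges were 6 to 7, 1 to 4 and 5 to 7 for IL-1b, Cre without and Cre under IL-1b, in NAMPT flox 6 to 8, 4 to 7 and 4 to 5, and in NFKBIZ flox 7 to 8, 0 to 0 and 1 to 3. In WT each stayed at 0. For IL-1b against untreated in WT, the one WT comparison simulated, edgeR recovered 0 of 200 genes changed by 1 unit on the log2 scale. The simulated spread came from the WT libraries as labelled, including those that went against their labels. In LDHA flox, with the same number of groups and libraries, 155 of 200 were recovered. The WT value therefore does not describe the design apart from these labels.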
